A study of Mus musculus with 6 samples.

Results

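Collagen genes were taken as all genes of the array annotation whose symbol has the form Col, a type number, the letter a and a chain number, and that have at least 1 probe set given to that gene alone. The rule gave 42 genes of the 18193 genes measured, with 11 fibrillar collagens, 8 collagens of basement membranes and 23 collagens of other types. Of the 44 symbols of this form in the RefSeq gene table used for names, Col28a1 and Col6a6 were not analysed here. Each gene is represented by its brightest probe set over all arrays, and the values used are the deposited probe set intensities on a linear scale.

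The study compared the dorsal telencephalon, the part of the forebrain that forms the cerebral cortex, of mouse embryos at E14.5, in mid-gestation. There were 3 wild-type arrays (WT) and 3 conditional knockout arrays (cKO), all on the genetic background C57BL\6 and all labelled male. In the cKO embryos the gene for ESET, a histone methyltransferase encoded by Setdb1, was deleted with Emx2Cre, a Cre recombinase line named for Emx2, which is active in progenitors of the dorsal forebrain. The deletion is therefore limited to cells in which that Cre was active and their descendants, and the labels do not say whether WT embryos carried Cre. Arrays are named by group and the number in their titles, as in cKO 3.

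Collagens are extracellular proteins in which 3 alpha chains wind into a triple helix. Fibrillar collagens form the fibrils of connective tissue, type IV collagen forms the sheet of basement membranes, and further types coat fibrils, link them to other structures or span the cell membrane. In the embryonic forebrain, collagens are known mainly from the meninges, from blood vessels and from the pial basement membrane to which radial glia attach. Type III collagen is a known ligand of the receptor Adgrg1 (GPR56) on cells of the cortex.

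Median intensities of the arrays ran from 91.1 to 119, and the brightest Setdb1 probe set was lower in cKO, from 500 to 704 against 1033 to 1185 in WT, short of the threshold over all genes (limma adjusted p = 0.137). In each group the array numbered 3 stood apart. For Xist, which is transcribed from the inactive X chromosome, the intensity was 17294 on WT 3 and 8811 on cKO 3, although the labels call all embryos male. For the Y-linked Eif2s3y it was 22.2 and 961. The other 4 arrays lay between 34.1 and 59.0 for Xist and between 1927 and 2186 for Eif2s3y. Hba-x, an embryonic globin gene, read 20068 on WT 3 and 19913 on cKO 3, against 513 or less on the other arrays. The 9 measured genes of 10 in a dorsal telencephalon list were all brighter than the median gene, and their median on an array lay within 0.23 (log2) of the WT mean. Results that rest on the arrays numbered 3 are also given without cKO 3 alone, without both of these arrays, or in both ways. A fit without cKO 3 alone keeps WT 3.

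Sequences upstream of 4 collagen genes are shown because these genes carry the patterns described below. Col1a2 and Col3a1 had their highest value on cKO 3 by a wide margin, and Col5a1 and Col16a1 were higher on every cKO array than on every WT array. Each is the stretch of 250 bases before the annotated start, from RefSeq on build GRCm38.p6, plus strand. Col1a2 lies at chr6:4505368-4505617, Col3a1 at chr1:45311288-45311537, Col5a1 at chr2:27886175-27886424 and Col16a1 at chr4:130047590-130047839. Capitals mark the CCAAT box, the motif TATAA and the GC box GGGCGG, each on either strand, and overlapping matches run together.
Col1a2: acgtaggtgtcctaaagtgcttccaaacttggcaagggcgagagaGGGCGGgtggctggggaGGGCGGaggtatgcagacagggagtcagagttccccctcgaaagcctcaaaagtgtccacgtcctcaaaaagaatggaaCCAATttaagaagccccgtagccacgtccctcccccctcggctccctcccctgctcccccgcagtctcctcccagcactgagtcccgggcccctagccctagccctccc
Col3a1: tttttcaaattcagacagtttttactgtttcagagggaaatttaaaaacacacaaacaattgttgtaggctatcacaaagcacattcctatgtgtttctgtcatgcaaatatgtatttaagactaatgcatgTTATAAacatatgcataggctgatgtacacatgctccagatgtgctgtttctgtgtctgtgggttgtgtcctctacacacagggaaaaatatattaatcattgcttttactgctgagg
Col5a1: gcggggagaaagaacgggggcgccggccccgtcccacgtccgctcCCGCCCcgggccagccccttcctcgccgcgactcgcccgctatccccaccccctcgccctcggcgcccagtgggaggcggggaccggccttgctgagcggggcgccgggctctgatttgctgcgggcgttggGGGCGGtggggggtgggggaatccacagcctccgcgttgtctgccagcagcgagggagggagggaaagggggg
Col16a1: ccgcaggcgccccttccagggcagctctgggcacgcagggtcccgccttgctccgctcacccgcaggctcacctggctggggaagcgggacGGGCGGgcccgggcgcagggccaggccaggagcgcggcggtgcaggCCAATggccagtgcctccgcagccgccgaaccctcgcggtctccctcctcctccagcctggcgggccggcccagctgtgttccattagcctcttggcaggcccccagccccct

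The stretch before Col3a1 had a GC content of 35.2% and no GC box, while that before Col5a1 had 76.4% and that before Col16a1 75.6%. Col1a2, whose values followed those of Col3a1 across the cKO arrays, had 62.0%, with 2 GC boxes and 1 CCAAT. The table held 36 windows for 33 of the 42 genes. Of these, 21 held the GC box, or 58.3%, against 32.7% of the 32851 windows in the table. CCAAT or its reverse was in 36.1% of the collagen windows and 33.8% of all windows, and TATAA or its reverse in 19.4% and 22.8%. These counts describe letters in a window and were not tested. Col4a1 and Col4a2 lie head to head on chromosome 8, with annotated starts 21 bases apart on opposite strands.

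The comparison of genotypes asks which collagen transcripts differ between WT and cKO samples of the dorsal telencephalon. None of the 42 collagen genes passed the threshold of 0.05 on the adjusted p in limma, against 114 of all 18193 genes, or 0.627%, of which 0.385% were higher and 0.242% lower. The lowest adjusted p of a collagen was 0.178, for Col22a1. At an unadjusted p under 0.05 there were 2 collagens, Col22a1 and Col16a1, both higher in cKO, where 9.56% of all genes passed, 5.17% higher and 4.39% lower. Without both arrays numbered 3, 0 collagens passed the threshold and 5 had an unadjusted p under 0.05, against 0.0440% and 9.78% of all genes. With a trended and robust variance the count past the threshold was also 0. The median log2 fold change of the 42 genes, cKO minus WT on the scale log2(intensity + 16), was 0.14, against 0.01 for all genes, and 27 of 42 were above 0, against 51.2% of all genes. Without cKO 3 the median of the 42 was -0.01, and without both arrays numbered 3 it was 0.14. WT 3, which the fit without cKO 3 alone keeps, was the highest WT array for 26 of the 42 genes, against 35.7% of all genes.

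WT and cKO arrays did not overlap for 5 of the 42 genes, Col22a1, Col9a3, Col12a1, Col16a1 and Col5a1, or 11.9%, against 15.5% of all genes. All 5 were higher in cKO, a direction that 7.90% of all genes took without overlap, where 7.64% were lower. Most collagen probe sets were dim, with 34 of 42 below the median gene and 5 with a mean under the pseudocount of 16. The low intensities and the 3 arrays per group limit what could be detected, and an adjusted p above the threshold does not show that a gene was the same in both genotypes.

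**Figure D1:**
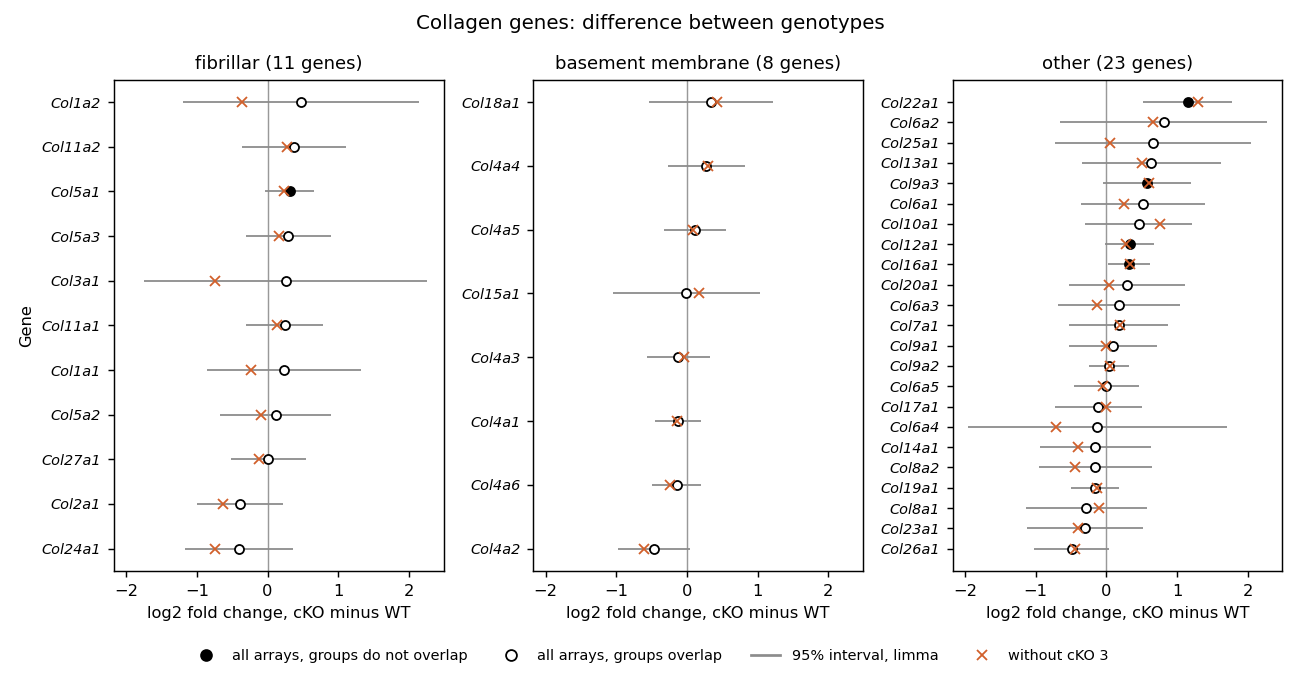
Log2 fold change of each collagen gene, cKO minus WT, in 3 panels by class, with the 95% interval of the limma model as a bar; filled circles are genes without overlap between genotypes, open circles the others, and crosses the value without cKO 3. Intervals of the 11 fibrillar and 8 basement membrane genes all include 0, and among them Col1a1, Col1a2, Col3a1, Col5a2, Col27a1 and Col15a1 lie on the other side of 0 without cKO 3. Without both arrays numbered 3, which is not drawn, Col1a1, Col5a2 and Col27a1 kept their sign, at 0.02, 0.20 and 0.06.

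Fibrillar collagens had a median log2 fold change of 0.24 over 11 genes, with 9 above 0 and 2 below. That median was -0.12 without cKO 3 and 0.06 without both arrays numbered 3. Array 3 was the highest of its group for nearly all of them. On cKO 3, 11 of 11 fibrillar genes were higher than on cKO 1 and cKO 2, where 38.3% of all genes were. On WT 3, 10 of 11 were higher than on WT 1 and WT 2, where 35.7% of all genes were. The exception was Col24a1. The median of the 11 genes lay 0.63 (log2) above the other cKO arrays on cKO 3 and 0.52 above the other WT arrays on WT 3.

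Col3a1, the single chain of type III collagen, read 116, 157 and 229 on WT 1 to 3 and 78.3, 103 and 835 on cKO 1 to 3. On this probe set, the brightest, the cKO arrays therefore lay on both sides of the WT arrays, with cKO 3 far above and the other cKO arrays below. Its log2 fold change was 0.26 (SE 0.83, 95% interval -1.74 to 2.25, limma adjusted p = 0.976). Without cKO 3 it was -0.75 (SE 0.29, adjusted p = 0.501), and without both arrays numbered 3 it was -0.52 (adjusted p = 0.583). The direction of Col3a1 on this probe set thus depended on 1 array. A second, dimmer probe set read 12.7, 44.9 and 45.6 in WT and 23.2, 22.9 and 92.2 in cKO. There cKO 3 was again the highest array, and the other cKO arrays lay within the WT range. The log2 fold change on it was 0.21 (SE 0.50).

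Type I collagen, the main fibril of skin and bone, is built from the products of Col1a1 and Col1a2. Col1a2 read 108, 93.3 and 169 in WT and 88.8, 91.0 and 583 in cKO. Col1a1 was dimmer, at 23.3, 37.3 and 60.5 in WT and 37.4, 24.3 and 106 in cKO. For both genes cKO 3 was the highest of the 6 arrays and WT 3 the next. The log2 fold change of Col1a2 was 0.48 (SE 0.69, 95% interval -1.19 to 2.14) and -0.36 without cKO 3. That of Col1a1 was 0.24 (SE 0.45, 95% interval -0.85 to 1.32) and -0.23 without cKO 3. Without both arrays numbered 3, Col1a2 was at -0.13 and Col1a1 at 0.02.

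Type V collagen regulates the diameter of fibrils, and its chains come from Col5a1, Col5a2 and Col5a3. Col5a1 read 197, 184 and 208 in WT and 212, 256 and 280 in cKO. The groups did not overlap, by a small margin, and the log2 fold change was 0.31 (SE 0.14, 95% interval -0.03 to 0.66, limma adjusted p = 0.574). A second probe set of Col5a1 read 145, 89.5 and 142 in WT and 198, 206 and 206 in cKO, also without overlap, with a log2 fold change of 0.66 (SE 0.20). Its adjusted p over all probe sets was 0.443. Col5a2 read 249, 207 and 429 in WT and 310, 221 and 416 in cKO, where both groups spanned a like range. Its log2 fold change of 0.12 was -0.10 without cKO 3 and 0.20 without both arrays numbered 3.

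Col2a1, the chain of the cartilage fibril that is also made in early neuroepithelium, read 416, 339 and 490 in WT and 242, 280 and 441 in cKO. cKO 1 and cKO 2 lay below every WT array, and cKO 3 within the WT range. The log2 fold change was -0.38 (SE 0.25, 95% interval -0.99 to 0.22, adjusted p = 0.753), and -0.63 without cKO 3 (adjusted p = 0.380). Col11a1, which joins type II collagen in fibrils, read 267, 191 and 328 in WT and 260, 307 and 357 in cKO. Col27a1, a fibrillar chain of developing cartilage, read 129, 138 and 200 in WT and 123, 159 and 189 in cKO. Its log2 fold change of 0.01 (SE 0.22) came from groups that lay over each other. It was -0.12 without cKO 3 and 0.06 without both arrays numbered 3. The remaining members, Col5a3, Col11a2 and Col24a1, had log2 fold changes of 0.29, 0.38 and -0.40, and Col24a1 had a mean under the pseudocount.

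**Figure D2:**
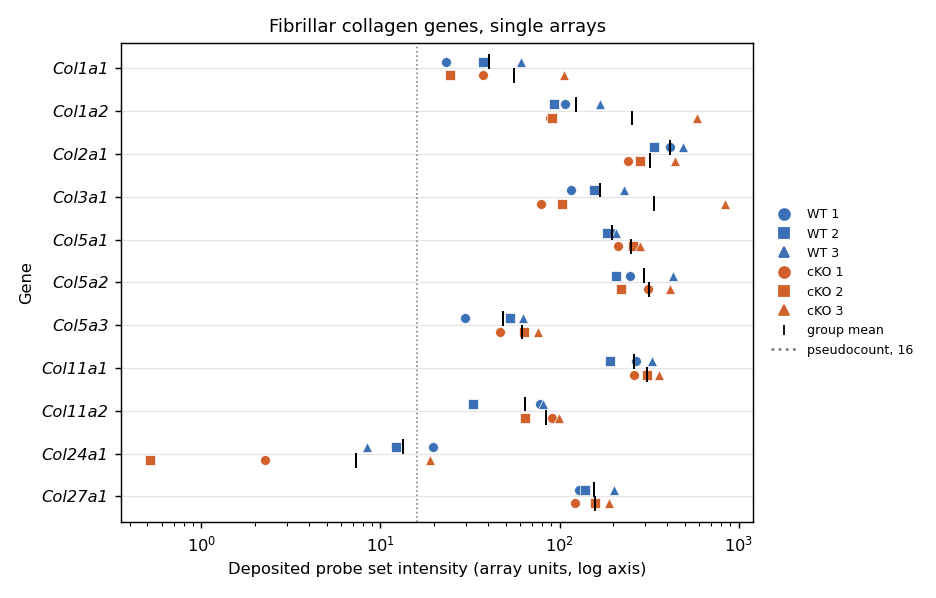
Intensity of the 11 fibrillar collagen genes on each array (log axis), WT in blue and cKO in orange, with a symbol per array number and a black bar at the group mean; rows are separate probe sets, so levels are not comparable between genes. Triangles, the arrays numbered 3, are the rightmost cKO point in every row and the rightmost WT point in every row but Col24a1; Col3a1 on cKO 3 is at 835 against 78.3 and 103.

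The marker lists moved in part with these values. A list of 19 measured genes of meninges and mesenchyme, with no collagen in it, had summed intensities from 1228 to 2002 in WT and from 1171 to 2941 in cKO, with cKO 3 the highest. Of these 19 genes, 18 were higher on cKO 3 than on the other cKO arrays, and the list median lay 1.05 (log2) above them. On WT 3 it lay 0.20 above the other WT arrays, with 9 of 19 genes highest there. A skeletal muscle list of 11 genes lay 1.20 above on cKO 3 and 0.56 on WT 3, and an erythroid list of 9 genes 2.18 and 1.85. A list of 6 genes of skin and surface ectoderm lay 0.63 and 0.40 above. No marker of these 4 lists was under an intensity of 16 on every array, except Myf5 of the muscle list. Some exceeded 16 only on an array numbered 3, as did Slc6a13 of the meninges list, at 21.3 on cKO 3. The mean was under 16 for 5 of the 19 meninges and mesenchyme genes and 1 of the 11 muscle genes. It was under 16 for 0 genes of the erythroid list and of the skin list. The part of these lists in the fibrillar values was not tested.

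Other marker lists showed smaller shifts on array cKO 3. Those of the endothelium, pericyte and smooth muscle, cartilage and bone, choroid plexus, and microglia and macrophage lists ran from -0.02 to 0.10. The shift of the dorsal telencephalon list was 0.19. In a bulk sample, fewer cells of a type and less RNA per cell cannot be told apart. Between genotypes, the endothelium list had a median log2 fold change of -0.38 over 13 genes, with 12 below 0 and 0 past the threshold in limma. At an unadjusted p under 0.05, 6 of its genes were lower and 0 higher, against 4.39% and 5.17% of all genes. The medians of the other 9 marker lists lay between -0.02 and 0.24, again with 0 of their genes past the threshold, and an unadjusted p under 0.05 was found for 5 of their genes that were higher and 4 that were lower, against the same shares.

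**Figure D3:**
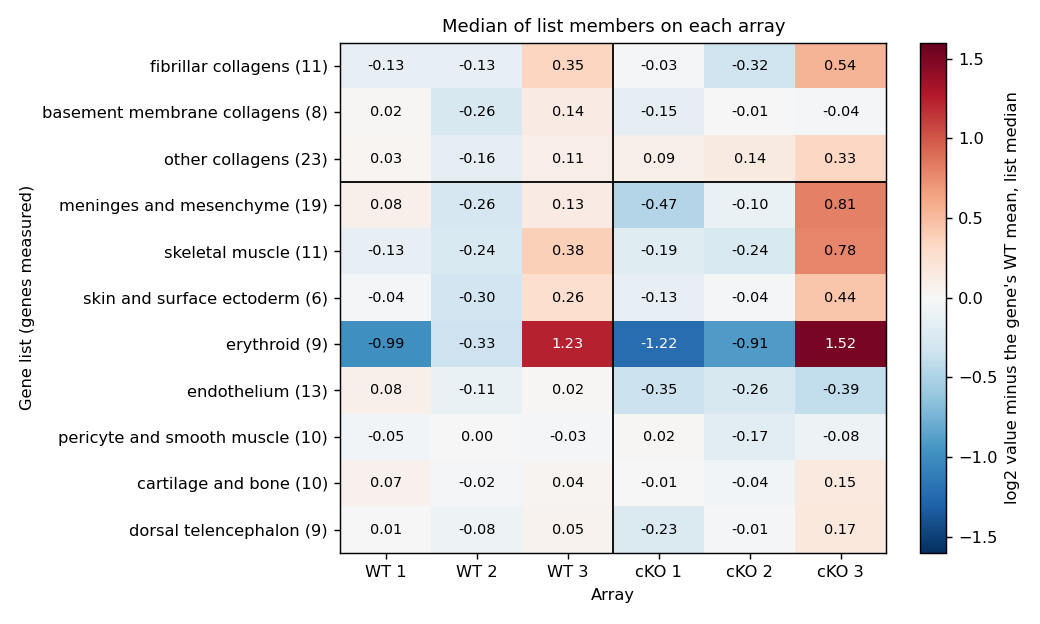
For each list (rows, with the number of genes measured) and array (columns), the median over list members of the log2 value minus that gene's mean over the 3 WT arrays. Fibrillar collagens read 0.54 on cKO 3 and 0.35 on WT 3 and are below 0 on the other arrays, while basement membrane collagens read -0.04 on cKO 3.

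Basement membrane collagens showed no common direction. Their median log2 fold change was -0.06 over 8 genes, with 3 above 0 and 5 below. That median was 0.02 without cKO 3 and 0.08 without both arrays numbered 3. Unlike the fibrillar genes, 2 of 8 were highest of the cKO arrays on cKO 3, while 6 of 8 were highest of the WT arrays on WT 3. The difference between the classes was not tested.

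Col4a1 and Col4a2 encode the chains of the most widespread type IV collagen, present in the basement membranes of vessels and the pial surface. Col4a1 read 860, 728 and 894 in WT and 707, 789 and 765 in cKO. Its group means were 827 ± 87.8 and 754 ± 42.3 (SD, n = 3), and the log2 fold change was -0.13 (SE 0.13, 95% interval -0.45 to 0.19). Col4a2 read 587, 440 and 685 in WT and 357, 367 and 493 in cKO, with cKO 1 and cKO 2 below every WT array. Its log2 fold change was -0.47 (SE 0.21, 95% interval -0.98 to 0.04, limma adjusted p = 0.571), and -0.61 without cKO 3 (adjusted p = 0.450). A second probe set of Col4a1 was at -0.38 (SE 0.21), with overlapping groups.

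The chains Col4a3 to Col4a6 form the type IV networks of kidney, lung and other specialised membranes. Col4a5 read 399, 354 and 443 in WT and 342, 515 and 453 in cKO, with a log2 fold change of 0.11 (SE 0.18). Col4a6, its neighbour on the X chromosome, read 123, 105 and 131 in WT and 100, 97.4 and 122 in cKO, with a log2 fold change of -0.15 (SE 0.14). Col4a3 was dim, at 47.9, 26.6 and 41.7 in WT and 34.8, 38.0 and 28.7 in cKO. In each of the 3 genes the groups overlapped. Col4a4, between 23.3 and 52.9 on the 6 arrays, had a log2 fold change of 0.27, with overlapping groups. A dimmer probe set of Col4a4 read 3.04, 5.94 and 4.17 in WT and 8.84, 16.7 and 31.2 in cKO, without overlap. On it the log2 fold change was 0.73 (SE 0.25, limma adjusted p over all probe sets = 0.516). Its remaining probe set was at 0.19, with overlapping groups.

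Collagens XV and XVIII are proteoglycans of the basement membrane zone, and type XVIII is the source of endostatin. Col18a1 read 180, 150 and 399 in WT and 367, 252 and 256 in cKO. WT 3 was the highest of the 6 arrays, and the other WT arrays were below every cKO array. The log2 fold change was 0.35 (SE 0.36, 95% interval -0.53 to 1.22), and 0.83 without both arrays numbered 3 (adjusted p = 0.402). A second probe set read 107, 101 and 198 in WT and 202, 185 and 220 in cKO. On it WT 3 lay within the cKO range, and the other WT arrays were again below every cKO array. Col15a1 was dim on 5 arrays, at 26.3 or less, and read 48.2 on WT 3.

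**Figure D4:**
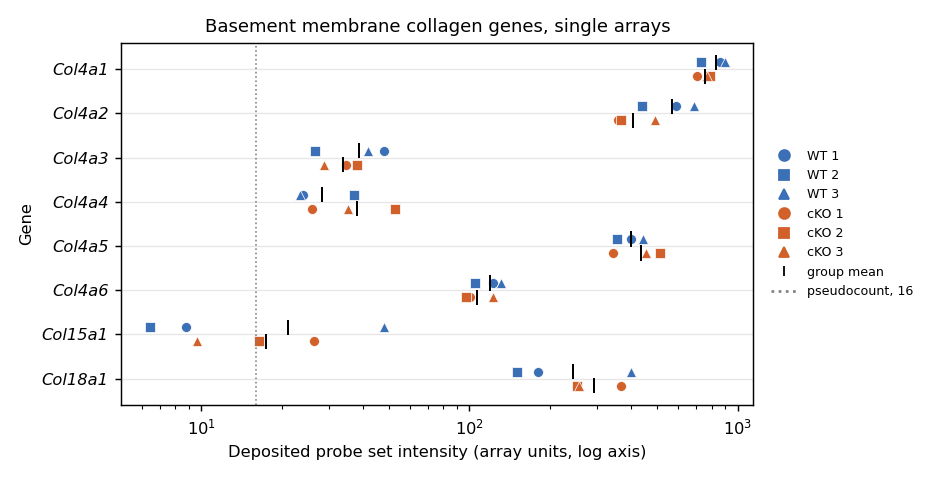
Intensity of the 8 basement membrane collagen genes on each array (log axis), WT in blue and cKO in orange, with a symbol per array number and a black bar at the group mean; levels are not comparable between genes. On the brightest probe sets, which are drawn, all 8 genes have overlapping groups, and the WT 3 triangles of Col18a1 (399) and Col15a1 (48.2) lie apart from the other WT arrays.

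The other collagens had a median log2 fold change of 0.17 over 23 genes, with 15 above 0 and 8 below. That median was 0.04 without cKO 3 and 0.17 without both arrays numbered 3. The genes that did not overlap were all FACIT collagens, which sit on the surface of fibrils and have interrupted triple helices. Of 9 FACIT genes, 4 were higher on every cKO array, as were 7.90% of all genes. The median of the 9 was 0.29, or 0.05 without cKO 3 and 0.17 without both arrays numbered 3.

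Col22a1, a FACIT collagen of tissue junctions such as that of muscle and tendon, had the largest difference among the 42 genes. It read 120, 94.8 and 76.6 in WT and 197, 338 and 186 in cKO. The mean was 97.1 ± 21.7 in WT and 240 ± 84.8 in cKO (SD, n = 3). On the log2 scale cKO exceeded WT by 1.15 (SE 0.26, 95% interval 0.52 to 1.78, limma adjusted p = 0.178). The difference did not rest on the arrays numbered 3, since it was 1.16 without them (adjusted p = 0.362). A second probe set read 80.2, 59.0 and 65.4 in WT and 109, 121 and 160 in cKO, a log2 fold change of 0.78 (SE 0.19) without overlap. On the third probe set, at 0.41 (SE 0.43), the groups overlapped.

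Col9a3, a chain of the FACIT collagen of cartilage, read 191, 180 and 102 in WT and 286, 198 and 227 in cKO. Its log2 fold change was 0.57 (SE 0.26, 95% interval -0.05 to 1.20, limma adjusted p = 0.570), and 0.34 without both arrays numbered 3. Another probe set of Col9a3 parted the groups more widely, at 90.7, 85.8 and 58.6 in WT and 167, 161 and 164 in cKO. On it the log2 fold change was 0.95 (SE 0.18, adjusted p over all probe sets = 0.161). The remaining, dim probe set was at -0.11. The partner chain Col9a1 read 102, 86.4 and 143 in WT and 140, 81.1 and 138 in cKO, with no such gap, and Col9a2 was at 5.09 or less on every array.

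Col16a1, which is found near fibrillin and fibrils of several tissues, read 166, 186 and 170 in WT and 240, 208 and 217 in cKO. The spread within groups was small, and the log2 fold change was 0.32 (SE 0.12, 95% interval 0.03 to 0.62, limma adjusted p = 0.463). Col12a1, a FACIT collagen of dense connective tissue, read 99.4, 76.8 and 76.2 in WT and 100, 110 and 118 in cKO, so that WT 1 and cKO 1 nearly met. Its log2 fold change was 0.33 (SE 0.14, adjusted p = 0.552). A second probe set of Col12a1 was at 0.55 with overlapping groups, and the others, with means under the pseudocount, were at -0.31 and -0.05. The mean over its probe sets gave 0.13. Col14a1, Col19a1 and Col20a1 were at -0.16, -0.16 and 0.29, with overlapping groups. Col20a1 was at 0.04 without cKO 3 and at -0.25 without both arrays numbered 3.

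Among type VI collagens, which form beaded filaments around cells, 4 of 5 genes were above 0 and all groups overlapped. Their median was 0.18, and -0.05 without cKO 3, where Col6a1 and Col6a2 were above 0 and the other 3 below. Without both arrays numbered 3 the median was -0.04. Col6a2 had the largest value, 0.81 (SE 0.61), from 101, 9.24 and 105 in WT and 94.9, 98.4 and 136 in cKO, where WT 2 was low. On its second probe set, at 20.5, 59.2 and 78.4 in WT and 74.8, 100 and 222 in cKO, WT 1 was the lowest array, and the log2 fold change was 1.09 (SE 0.48). All 5 type VI genes were highest of the cKO arrays on cKO 3. Col7a1, the anchoring fibril of epithelia, read 92.8, 45.6 and 119 in WT and 87.1, 103 and 89.5 in cKO.

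The transmembrane collagens Col13a1, Col17a1, Col23a1 and Col25a1 ranged from -0.30 to 0.66 in log2 fold change. Col25a1, a membrane collagen of neurons, was at 154 on cKO 3 and at 54.8 or less on the other arrays. Without cKO 3 the log2 fold change of 0.66 was 0.05, and without both arrays numbered 3 it was 0.36. Its second probe set had a log2 fold change of the other sign, -0.39. The short-chain collagens Col8a1, Col8a2 and Col10a1 were at 36.7 or less on every array. Col26a1 had the lowest log2 fold change of the 42 genes, -0.49 (SE 0.22, adjusted p = 0.558), from 39.0, 24.7 and 54.6 in WT to 21.0, 26.2 and 20.3 in cKO.

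**Figure D5:**
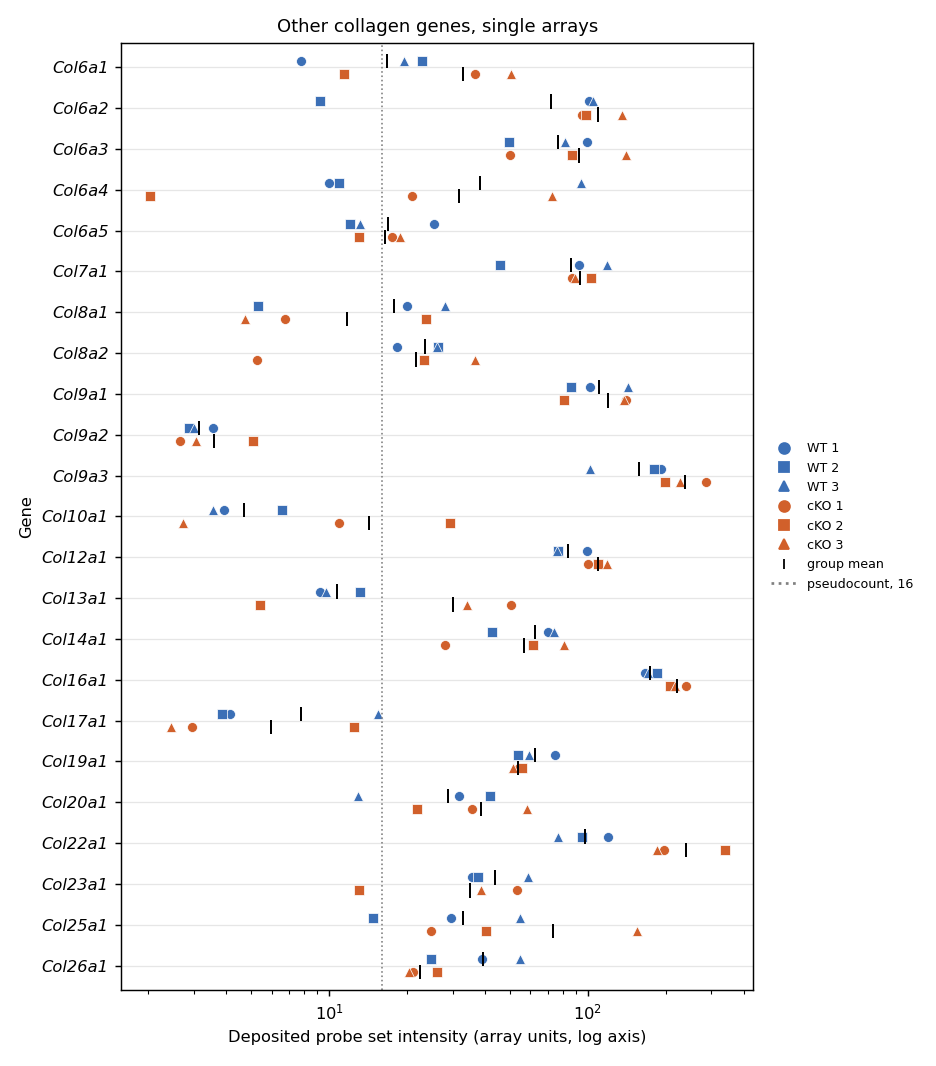
Intensity of the 23 other collagen genes on each array (log axis), WT in blue and cKO in orange, with a symbol per array number, a black bar at the group mean and a dotted line at the pseudocount of 16; levels are not comparable between genes. Col22a1, Col9a3, Col16a1 and Col12a1 have all cKO points to the right of all WT points, and Col9a2 lies left of the dotted line on every array.

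The 42 genes had 82 probe sets, and 27 genes had more than 1. In the fit over all 45037 probe sets, 0 of the 82 passed the threshold (lowest adjusted p = 0.161), against 0.275% of all probe sets, and 5 had an unadjusted p under 0.05, against 7.90% of all probe sets. The groups did not overlap on 10 of the 82, all higher in cKO, against 13.5% of all probe sets in either direction. Of the 40 probe sets that are not the brightest of their gene, 24 had the sign of the brightest and 16 the other sign. Among the 24 with a mean of at least 16, 8 had the other sign.

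Genes that act on collagens were described from lists by role. Among receptors, 1 of 10 measured genes passed the threshold upward and 0 downward, against 0.385% and 0.242% of all genes. The receptor that passed was Ddr2, a receptor tyrosine kinase that binds fibrillar collagens. It read 106, 65.8 and 89.8 in WT and 448, 426 and 332 in cKO, so that every cKO array was at least 3 times as bright as every WT array. The mean was 87.3 ± 20.3 in WT and 402 ± 61.4 in cKO (SD, n = 3). On the log2 scale cKO exceeded WT by 2.03 (SE 0.20, 95% interval 1.54 to 2.51, limma adjusted p = 0.0141). A second, dimmer probe set was at 0.58 (SE 0.26), at 77.8, 38.3 and 46.5 in WT and 111, 72.6 and 77.5 in cKO, with overlapping groups. In the fits that left out 1 array Ddr2 stayed between 1.87 and 2.16 and passed in 2 of 6. Its adjusted p was 0.0510 without WT 1, 0.0641 without WT 3, 0.0841 without cKO 1 and 0.0854 without cKO 2, and 0.158 without both arrays numbered 3.

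The other collagen receptors did not pass. Adgrg1, the type III collagen receptor named above, read 891, 754 and 678 in WT and 1253, 1045 and 1366 in cKO, a log2 fold change of 0.65 (SE 0.17, limma adjusted p = 0.228). Its second probe set was at 0.38 (SE 0.21), with overlapping groups. Ddr1, a receptor of the same family as Ddr2, was at 0.45 (SE 0.17), without overlap, and Lair1, an inhibitory receptor of blood cells, at 0.48 (SE 0.22). Over the 10 receptors the median was 0.34, with 9 above 0, against 51.2% of all genes, and 4 not overlapping and higher, against 7.90%.

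Among 27 measured genes of collagen biosynthesis and cross-linking, 0 passed in limma, and at an unadjusted p under 0.05 there was 1 in each direction, against 5.17% of all genes higher and 4.39% lower. Adamts3, a protease that removes the amino-terminal propeptide of fibrillar procollagens and also cleaves reelin, had the smallest p. It read 2710, 2535 and 1907 in WT and 961, 1257 and 893 in cKO, without overlap. Its log2 fold change was -1.19 (SE 0.20, limma adjusted p = 0.0772). It passed in 3 alternatives, with adjusted p = 0.0136 without the dimmer genes, 0.0276 with a pseudocount of 64 and 0.00836 with trend and robust settings, and its highest adjusted p was 0.260, where the mean of its probe sets gave -0.55. Its dim second probe set was at 0.08 (SE 0.18). Tll1, which removes the other propeptide, was at 0.57 (SE 0.14) from a WT mean under the pseudocount, Mia3, which exports procollagen from the endoplasmic reticulum, at 0.28, and Loxl3, a cross-linking enzyme, at 0.27. The list median was 0.04.

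Among 12 measured genes of collagen degradation and its inhibitors, 0 passed, and an unadjusted p under 0.05 was found for 2, both higher, against 5.17% of all genes. Timp3, a metalloprotease inhibitor bound to the extracellular matrix, read 158, 154 and 190 in WT and 496, 324 and 493 in cKO, a log2 fold change of 1.29 (SE 0.20, limma adjusted p = 0.0639). It passed in 4 alternatives, with adjusted p = 0.0103 without the dimmer genes, 0.0263 with a pseudocount of 64, 0.0120 with trend and robust settings and 0.04998 with centring, and its highest adjusted p was 0.261, without both arrays numbered 3. The groups did not overlap on any of its 4 probe sets, whose log2 fold changes ran from 0.62 to 1.48. Ctsk, a collagen-degrading cathepsin, was at 0.73 (SE 0.21), without overlap. The gelatinase Mmp9 was at -0.38 (SE 0.19) and the neutrophil collagenase Mmp8 at -0.56 (SE 0.32), both with overlap.

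The other proteins of basement membranes, with 14 measured genes, also had 0 past the threshold, and an unadjusted p under 0.05 was found for 2, both higher, against 5.17% of all genes. The laminin chain Lamb2 read 129, 128 and 115 in WT and 175, 167 and 174 in cKO, a log2 fold change of 0.42 (SE 0.12, limma adjusted p = 0.263). Lama5 was at 0.65 (SE 0.26), without overlap, Lamc3 at -0.29 and Lama4 at 0.19. The list median was -0.12. Of 9 proteoglycans and glycoproteins that bind fibrils 0 passed, and 0 had an unadjusted p under 0.05, against 0.627% and 9.56% of all genes. Postn was at 0.63, Fn1 at -0.27, Tnxb at 0.27 and Sparc at -0.17, and their list median was -0.01.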

How the data were processed

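RNA of 6 single-colour Affymetrix arrays was analysed, 3 WT and 3 cKO. The deposited values are linear probe set intensities, made with the Affymetrix Expression Console per the submitters' processing notes (version and algorithm: not given in the sources used here). Their trimmed mean (2% cut from either tail) ranged from 497.2 to 497.7 over the arrays, close to a shared target. There are no detection calls.

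Intensities were taken to log2(intensity + 16), which understates fold changes of dim genes. Genotype alone was modelled in limma 3.58.1 (R 4.3.3, lmFit and eBayes, two-sided) on the brightest probe set of each of 18193 genes, with Benjamini-Hochberg adjustment over all of them and a threshold of 0.05. The platform annotation gave 34945 of 45037 probe sets 1 gene, 932 several and 9160 none. Array medians differed by 0.33 (log2), under the 0.5 set for centring. The fit was tested on simulated data.

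The members, lists and alternatives were chosen with earlier results of these data known. Values on every array are given for collagens without overlap and for the 6 brightest of each class. Those of Col1a1, Col1a2, Col6a2, Col26a1 and the probe sets named were added after they were seen. From each list of genes that act on collagens, up to 4 members with the smallest p are named. The design speaks of embryos, which is taken as 1 embryo per array, and p-values measure the spread between these arrays. Array cKO 3 read 8811 for Xist and 961 for the Y-linked Eif2s3y, and no other array had both signals. Whether cKO 3 came from 1 embryo was not tested.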

Additional observations from a re-analysis of the deposited data

How the results depend on the processing

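In every alternative run, which were centring on array medians, quantile normalization, a filter at the median brightness (which left none of the other class), pseudocounts of 1 and 64, trended and robust eBayes, array weights, leaving out _x_at and _s_at probe sets, the mean of a gene's probe sets, blocks, and leaving out arrays, 0 collagens passed the threshold. The count over all genes was 114 as reported and varied with the setting. It was 187 without the dimmer genes, 58 with a pseudocount of 1, 215 with 64, 244 with trend and robust settings, 189 with array weights, 8 without both arrays numbered 3 and between 26 and 53 when 1 array was left out. Same-numbered arrays had deviations that correlated at 0.07, 0.17 and 0.37 across genes, the last for WT 3 with cKO 3. Differently numbered pairs with an array numbered 3 ran from -0.27 to -0.14. WT 1 with cKO 2 was at 0.10 and WT 2 with cKO 1 at 0.15. The numbers were therefore not taken to pair all the arrays. With the replicate block the count was 17, and 0 collagens passed. With the arrays numbered 3 as a block, 0 collagens passed (lowest limma adjusted p = 0.141). In that fit 6 of 42 collagens and 2294 of 18193 genes had an unadjusted p under 0.05, against 2 and 1740 in the main fit. With 1 array left out, the class medians ran from -0.12 to 0.41 for fibrillar, from -0.22 to 0.060 for basement membrane and from -0.046 to 0.27 for other collagens. The medians of the basement membrane and other classes moved most without WT 2.

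Of 20 collagens followed through the alternatives, 10 kept their sign in all of them, and 23 of 348 values had the other sign, none past the threshold. Col27a1 was at -0.023 with quantile normalization, -0.037 with centring and -0.16 with the mean of its probe sets, a setting in which Col4a6 was at 0.11 and Col9a1 at -0.15. Without both arrays numbered 3, Col1a2 was at -0.13, Col3a1 at -0.52 and Col4a3 at 0.0031. When 1 array was left out, values ran from -0.23 to 0.57 for Col1a1, -0.36 to 0.90 for Col1a2, -0.75 to 0.84 for Col3a1, -0.12 to 0.19 for Col27a1, -0.29 to 0.0013 for Col4a3, -0.010 to 0.27 for Col4a5, -0.10 to 0.41 for Col5a2, -0.15 to 0.41 for Col7a1 and -0.046 to 0.32 for Col9a1. The cause of these changes of sign was not tested. Ddr2, Adamts3, Timp3 and Adgrg1 were added after their values were seen. Ddr2 had an adjusted p of 0.0868 with the mean of its probe sets and 0.0903 with the replicate block.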
